A study of Arabidopsis thaliana with 9 samples.

Results

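DJC76 (AT5G23240), DJC77 (AT2G42750) and AT1G56300 are 3 Arabidopsis thaliana genes for proteins with a DnaJ domain, followed here through RNA-seq of leaves. They were picked by locus from the 32833 genes of the deposited table, with their levels in these libraries already known. Of all genes, 24450 had a read and 19409 passed the filter on low counts, and all 3 genes were among them. Leaves came from 9 week old plants of the accession Shahdara in 3 groups, each of 3 libraries labelled as biological replicates. These were a line labelled IAA26 stable, a line labelled IAA26 knockout, and wild type Shahdara. IAA26 is an Aux/IAA protein, a repressor of auxin-responsive transcription. The sources used here do not give the promoter and allele behind each line, whether each is 1 transformant, or the time of day of sampling.

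The J domain is the part of a DnaJ protein that binds an Hsp70 chaperone and speeds up its ATP hydrolysis, and the rest of the protein often selects the client. Plants have a large J-domain family spread over the cytosol, mitochondria, endoplasmic reticulum and plastids. DJC76 and DJC77 belong to the plastid branch, in which a ferredoxin-like domain accompanies the J domain. AT1G56300 encodes a short protein described by its J domain alone.

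Total exon reads ran from 28585976 to 45346301 per library. IAA26 itself was at 12.7, 9.81 and 10.3 RPKM (reads scaled to exon length and to the library's read total) in the stable line. It was at 16.7, 17.2 and 12.4 RPKM in the line labelled knockout and at 17.5, 18.5 and 20.3 RPKM in wild type. IAA26 was lower in the stable line than in wild type (log2 fold change -0.70, edgeR adjusted p = 0.0112), and the knockout-labelled difference missed the threshold (-0.40, edgeR adjusted p = 0.12). The transcript was present in all 3 libraries labelled knockout, which are called the knockout-labelled line from here on, and these reads do not show what protein was made. All 5 leaf markers checked were detected in every library, but at varying levels. The carbonic anhydrase gene CA1 had 48.9, 302 and 357 RPKM in the stable line, 44.7, 79.8 and 180 RPKM in the knockout-labelled line, and 258, 170 and 99.1 RPKM in wild type, and its part in the results was not tested. The 3 seed markers were at or near 0 RPKM. Of the root markers, PYK10 had 2.59 to 11.2 RPKM, NRT2.1 0.501 to 1.76 RPKM and SCR 6.04 to 12.97 RPKM. Knockout-labelled replicate 3 had 4.46 RPKM of AP3 and 8.44 RPKM of PI, both petal and stamen identity genes. No other library exceeded 0.323 RPKM of AP3 or 0.952 RPKM of PI. The flower marker SEP3 was also highest there, at 8.002 RPKM, followed by stable replicate 1 at 5.62 RPKM. The flower marker AG had 2.51 RPKM there, against 2.08 and 1.905 RPKM in the other knockout-labelled libraries. On the first principal component knockout-labelled replicate 3 lay at -4.58, against -56.7 and -51.5 for the other knockout-labelled libraries. Stable replicate 1 lay at -3.01, against 87.8 and 71.5 for the other stable ones. Results without these libraries are given below for some of the fold changes and counts, not for every one.

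Sequence at the transcription starts is shown as a description, and nothing about the order of the groups is read from it. The lines of DJC76 and DJC77 are bases before the start. That of AT1G56300 was picked because it holds a motif match. The 250 bases before the AT1G56300 start held no match to the motifs searched below. Coordinates are those of TAIR10 and the sequence is RefSeq TAIR10.1, a Columbia genome, so Shahdara may differ. DJC76 has 4 exons and spans 7826732 to 7828724 of chromosome 5, minus strand, and the line below is chr5:7828725-7828974 (minus strand). DJC77 has 9 exons and spans 17793265 to 17795728 of chromosome 2, plus strand. Its line is chr2:17793143-17793264, all 122 bases between it and RPL11A. AT1G56300 has 2 transcripts of 5 exons each and spans 21078023 to 21080423 of chromosome 1, minus strand, and the line is a site of 30 bases, chr1:21080404-21080433, across its start. Capitals mark motif matches.
DJC76: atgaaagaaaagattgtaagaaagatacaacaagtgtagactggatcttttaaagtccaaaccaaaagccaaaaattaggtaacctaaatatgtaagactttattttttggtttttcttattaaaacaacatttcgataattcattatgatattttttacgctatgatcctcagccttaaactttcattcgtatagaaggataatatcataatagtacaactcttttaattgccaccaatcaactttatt
DJC77: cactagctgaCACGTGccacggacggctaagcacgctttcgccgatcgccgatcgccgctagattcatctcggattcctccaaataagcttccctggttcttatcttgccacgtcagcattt
AT1G56300: tgtaatatcatAAAATATCTtaaattgaaa

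Both strands from 250 bases before to 50 bases after each start were searched for 5 motifs, and 27443 genes were searched in the same way. The evening element AAAATATCT, bound by clock MYB factors such as CCA1 and LHY, began at base 2 of the AT1G56300 transcript, and 2.82% of all windows held it. The G-box CACGTG, a site of bHLH and bZIP factors, lay 112 bases before the DJC77 start and was in 7.68% of windows. A heat shock element, GAANNTTC, began at base 43 of AT1G56300 and was in 11.6% of windows. The CCA1-binding site AAAAATCT, in 7.88% of windows, and the CRT/DRE core CCGAC, in 15.1%, matched in none of the 3 genes, and DJC76 matched none of the 5 motifs. In a wider search of 1000 bases before each start, which was not planned, a heat shock element lay 285 bases before DJC76. Another lay 675 bases before DJC77, inside the RPL11A gene, and 33.2% of such windows held one. The evening element, CCA1-binding site and CRT/DRE core matched in none of the 3 genes there. They were in 7.24%, 21.15% and 37.4% of such windows. No match overlapped another, and a match is a description of letters only.

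DJC76 was highest in the stable line, intermediate in the knockout-labelled line and lowest in wild type. It had 57.6, 35.4 and 32.6 RPKM in the stable line, 21.3, 23.3 and 15.4 RPKM in the knockout-labelled line, and 1.55, 2.08 and 3.32 RPKM in wild type. No library of one group reached the range of another. The means were 41.8 ± 13.7, 20.001 ± 4.14 and 2.32 ± 0.907 RPKM in the stable line, the knockout-labelled line and wild type (SD, n = 3 each). DJC76 lay above 90.2% of genes with a read in the stable line, above 78.0% in the knockout-labelled line and above 41.5% in wild type. In bulk leaf RNA, fewer cells of a type and less RNA per cell cannot be told apart.

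AT1G56300 had the same order with less spread. It was at 25.7, 28.2 and 22.9 RPKM in the stable line, 8.21, 10.01 and 7.39 RPKM in the knockout-labelled line, and 1.65, 1.22 and 0.981 RPKM in wild type. Again no groups overlapped, and the means were 25.6 ± 2.63, 8.54 ± 1.34 and 1.28 ± 0.336 RPKM in the stable line, the knockout-labelled line and wild type (SD, n = 3 each). It lay above 83.7% of genes with a read in the stable line, 59.2% in the knockout-labelled line and 36.2% in wild type.

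DJC77 was by far the most abundant of the 3 genes per length in every group, and its order was different. It had 91.0, 119 and 118 RPKM in the stable line, 140, 111 and 117 RPKM in the knockout-labelled line, and 231, 162 and 154 RPKM in wild type. Every library of either line was below every wild type library, and the lines overlapped each other. The means were 109 ± 15.9, 123 ± 15.2 and 182 ± 42.4 RPKM in the stable line, the knockout-labelled line and wild type (SD, n = 3 each). The gap between the highest line library and the lowest wild type library was small beside the spread within wild type, whose replicate 1 stood above the other 2.

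**Figure D1:**
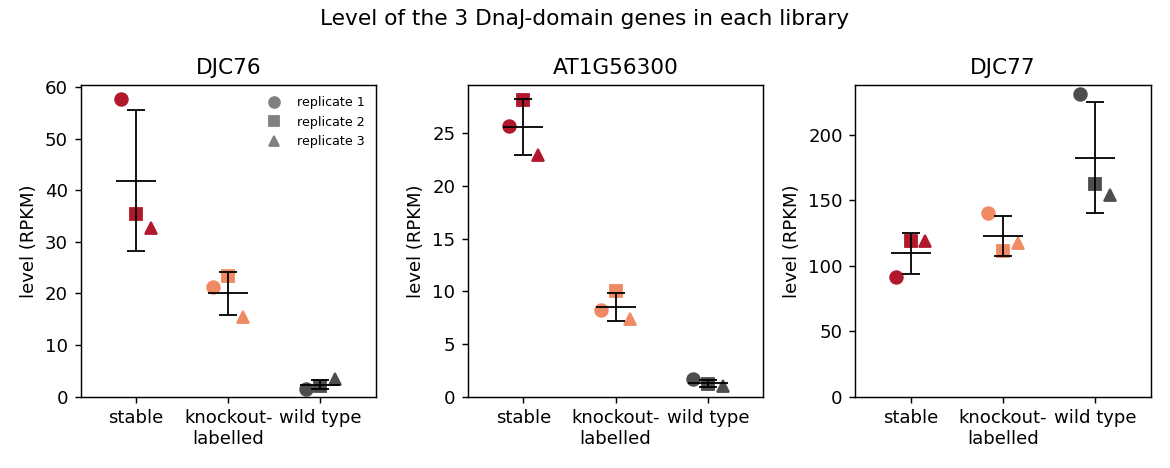
RPKM of DJC76, AT1G56300 and DJC77 in each library (y axis, linear, a scale per gene), by group on the x axis. Points are libraries, marked by replicate number, horizontal lines are group means and bars are 1 SD (n = 3). DJC76 and AT1G56300 step down from stable through knockout-labelled to wild type without overlap, while DJC77 has its 3 highest libraries in wild type.

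The order of stable above knockout-labelled above wild type with no overlap was met by 345 of the 19409 genes tested, or 1.78%. Both lines lay wholly above wild type in 1070 genes, 5.51%. DJC76 and AT1G56300 are 2 of the genes in each of these counts. Both lines lay wholly below wild type in 1064 genes, 5.48%, of which DJC77 is 1. Since the genes were chosen with these levels known, the shares are given as background and nothing is read from them.

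Fold changes from edgeR, fitted over all 9 libraries and all genes tested, are given as descriptions with no p-value for the 3 genes. For the stable line over wild type, AT1G56300 had a log2 fold change of 4.41 (SE 0.22), or 21.2-fold, and ranked 14 from the highest of all genes tested. DJC76 had 4.24 (SE 0.32), or 18.8-fold, and ranked 18. DJC77 had -0.64 (SE 0.21).

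For the knockout-labelled line over wild type, DJC76 had a log2 fold change of 2.99 (SE 0.30), or 7.93-fold, and ranked 59. AT1G56300 had 2.62 (SE 0.20), or 6.14-fold, and ranked 82. DJC77 had -0.68 (SE 0.21), close to its value in the stable line. These comparisons share the wild type libraries.

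Between the lines, stable over knockout-labelled, the log2 fold change was 1.79 (SE 0.19) for AT1G56300 and 1.25 (SE 0.28) for DJC76. It was 0.04 (SE 0.21) for DJC77. So AT1G56300 was 3.45-fold and DJC76 2.37-fold higher in the stable line than in the knockout-labelled line.

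At a Benjamini-Hochberg adjusted p of 0.05 (edgeR, quasi-likelihood), DJC76 and AT1G56300 passed in each of the 3 comparisons and DJC77 in none. The background of genes passing was 8.87% for stable against wild type, 5.09% higher and 3.78% lower. It was 1.66% for knockout-labelled against wild type, 0.927% higher and 0.732% lower. Between the lines it was 6.96%, 4.87% higher and 2.09% lower in the stable line. The balance depended on the scaling. Between the lines, 945 genes were higher and 406 lower with TMM, against 635 higher and 876 lower with library totals alone. For knockout-labelled against wild type, 180 were higher and 142 lower with TMM, 204 and 94 with library totals alone, and 784 and 994 with DESeq2. Nothing is read from these counts, since the comparisons also chose the genes. Against wild type, the pass of DJC76 in the knockout-labelled line was lost without knockout-labelled replicate 1 or 2, while its log2 fold change stayed between 2.78 and 3.33 whichever library was left out. Between the lines, DJC76 passed without stable replicate 1 but lost its pass when any other library of either line was left out, and AT1G56300 lost its pass without knockout-labelled replicate 1 or 2. Whichever library was left out, their log2 fold changes between the lines ranged from 1.03 to 1.39 and from 1.65 to 1.89. Without knockout-labelled replicate 1 or 2, 11 and 10 of all genes passed for knockout-labelled against wild type, and 3 and 8 between the lines. DJC77 passed against wild type with DESeq2 in both lines, and its log2 fold change for stable over wild type was -0.42 without wild type replicate 1.

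The number of reads behind these levels differed widely. DJC76 had 3022, 2073 and 2203 exon reads in the stable line, 1294, 1545 and 996 in the knockout-labelled line, against 98, 171 and 230 in wild type. AT1G56300 had 1470, 1797 and 1687 exon reads in the stable line, 542, 722 and 522 in the knockout-labelled line, against 113, 109 and 74 in wild type. DJC77 had at least 4134 exon reads in any library and 12611 in the deepest case, so counting error is least for it and greatest for the other genes in wild type.

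Reads counted as unique, a term that the column headers do not define, made up all exon reads of DJC77 in all 9 libraries. For DJC76 they were 99.7%, 99.9% and 98.8% on average in the stable line, the knockout-labelled line and wild type. For AT1G56300 they were 94.6 ± 0.782%, 89.7 ± 1.46% and 79.4 ± 1.30% in the same groups (SD, n = 3 each). The reads of AT1G56300 that were not unique numbered 82 to 92 per library in the stable line, 45 to 82 in the knockout-labelled line and 15 to 24 in wild type. With unique reads alone, the log2 fold change of AT1G56300 was 4.66 for stable over wild type, 2.79 for knockout-labelled over wild type and 1.87 between the lines.

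AT1G56300 also overlaps a gene on the other strand. Its exons cover 1865 bases, and 775 of them, 41.6%, lie within AT1G56290, a CwfJ-like family gene. No source used here says whether reads were counted by strand, so reads of the overlap cannot be told apart. AT1G56290 had log2 fold changes of -0.33 (SE 0.11) for stable over wild type, 0.08 (SE 0.11) for knockout-labelled over wild type and -0.41 (SE 0.11) between the lines, and passed the threshold in none. DJC76 shares 29 exon bases with the antisense non-coding gene AT5G03585, which had at most 35 reads in any library.

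The genes next to the 3 loci gave a local comparison. NIC2, a nicotinamidase gene whose near end lies 121 bases from the 3′ end of DJC76, had a log2 fold change of 0.32 (SE 0.18) for stable over wild type, and the succinyl-CoA ligase gene AT5G23250 on the other side had 0.08 (SE 0.10). ATDI19, a drought-induced gene, and AT1G56310 flank AT1G56300 and had 0.11 (SE 0.11) and 0.07 (SE 0.12). RPL11A, a ribosomal protein gene before DJC77, had -0.10 (SE 0.24). None of these 5 passed in any comparison. AT2G42760, a DUF1685 family gene whose near end lies 89 bases from the 3′ end of DJC77, was higher in the stable line than in the knockout-labelled line, with 50.4 against 16.2 RPKM on average (log2 fold change 1.85, SE 0.37, edgeR adjusted p = 0.0317), while DJC77 itself had 0.04 there.

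Intron reads come in part from unspliced transcripts and give a second, sparser reading of the same genes. DJC76 had 208, 95 and 150 intron reads in the stable line, 103, 83 and 107 in the knockout-labelled line, against 5, 12 and 15 in wild type. Scaled to the exon reads of each library, its intron reads were 17.7-fold and its exon reads 18.1-fold higher in the stable line than in wild type. In the knockout-labelled line they were 10.4-fold and 8.61-fold higher than in wild type. Between the lines the ratios, stable over knockout-labelled, were 1.70 for introns and 2.098 for exons. With the same scaling, the intron reads of stable replicate 2 lay below those of knockout-labelled replicates 1 and 3. The lines therefore overlapped in intron reads, unlike in RPKM, while both stayed above wild type. The wild type values rest on 32 intron reads in all.

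DJC77 had 134, 165 and 203 intron reads in the stable line, 207, 173 and 192 in the knockout-labelled line, against 431, 334 and 282 in wild type. As with exon reads, each line library was below each wild type library. Relative to wild type, the intron ratio was 0.560 and the exon ratio 0.600 in the stable line, and 0.600 and 0.673 in the knockout-labelled line. AT1G56300 had 109, 70 and 94 intron reads in the stable line, 24, 20 and 14 in the knockout-labelled line, against 1, 3 and 1 in wild type. With 5 wild type reads in all, no ratio to wild type is given, and the ratio of the stable to the knockout-labelled line was 5.12 for introns and 3.01 for exons. Over all genes, introns took 3.79% to 4.03% of gene reads in the libraries numbered 2 and 4.61% to 4.99% in the others, and their part in these values was not tested.

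**Figure D2:**
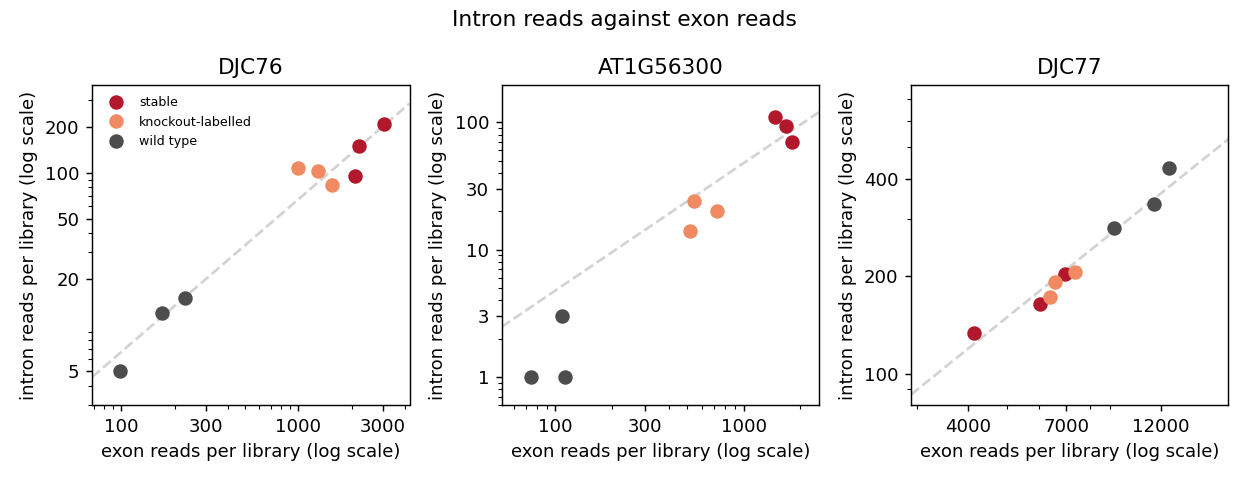
Intron reads (y axis) against exon reads (x axis) per library for the 3 genes, both on log scales, coloured by group. The dashed line marks a constant ratio of intron to exon reads, that of all 9 libraries summed. DJC77 libraries lie close to the line, while DJC76 libraries scatter to both sides of it in every group. For AT1G56300, stable replicate 2 and all knockout-labelled and wild type libraries lie below it, and 2 of the wild type libraries rest on 1 intron read each.

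Reads that cross an exon-exon junction made up 41.0 ± 0.978%, 40.5 ± 3.06% and 41.1 ± 4.71% of DJC76 exon reads in the stable line, the knockout-labelled line and wild type (SD, n = 3 each). For DJC77 they were 82.3 ± 0.568%, 81.5 ± 1.30% and 82.9 ± 0.214%. These shares differed between groups by no more than about the spread of the libraries. For AT1G56300 the share was 57.3 ± 0.373% in the stable line, 51.3 ± 1.17% in the knockout-labelled line and 46.5 ± 4.54% in wild type, the same order as its level and as its share of unique reads.

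Within the stable and wild type groups, DJC76 and DJC77 ran in opposite ways at the extremes. Stable replicate 1 had the most DJC76 and the least DJC77 of its group, and wild type replicate 1 had the least DJC76 and the most DJC77. In the knockout-labelled line, replicate 2 had the most DJC76 and the least DJC77, but replicate 3, with the least DJC76, was intermediate in DJC77. After group means of log2 CPM (counts scaled to library size) were removed, the Pearson correlation over the 9 libraries was -0.75 between DJC76 and DJC77, -0.54 between AT1G56300 and DJC76, and 0.57 between AT1G56300 and DJC77. These values are descriptions, since the genes share libraries and depth. Without stable replicate 1, the log2 fold change for stable over wild type was 4.01 for DJC76, -0.48 for DJC77 and 4.46 for AT1G56300. Without knockout-labelled replicate 3, that for knockout-labelled over wild type was 3.13, -0.68 and 2.69 in the same genes.

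The other J-domain genes set the 3 genes in their family. They are genes whose reference product names DnaJ or a J domain, or that were listed by hand. Protein sequences were not checked, so some may lack a J domain. Of 128 others in the table, 107 were tested and 10 had no read in any library. For stable against wild type, 3 rose and 4 fell, 6.54% of those tested beside 8.87% of all genes. Their median log2 fold change was -0.01 and that of all genes 0.01, and 4 of the 107 differed by at least 2-fold in either direction. Among the 110 J-domain genes, AT1G56300 ranked first and DJC76 second from the highest for that fold change, and DJC77 ranked 107.

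AT1G72416 rose most among the other J-domain genes that passed, with 14.9 ± 4.70 RPKM in the stable line and 2.99 ± 1.14 RPKM in wild type (SD, n = 3 each; log2 fold change 2.42, edgeR adjusted p = 0.00912). AT3G13310 (DJC66) rose by 0.60 and AT2G38000 by 0.44 on the log2 scale. JAC1, an auxilin-like protein needed for chloroplast movement, fell to 31.9 ± 5.07 RPKM in the stable line, against 53.5 ± 4.38 RPKM in wild type (SD, n = 3 each; log2 fold change -0.67, edgeR adjusted p = 0.0114). ATJ3, a cytosolic partner of Hsp70, fell by 0.63, ATJ13 fell by 0.35, and ATJ2, the close relative of ATJ3 and named because it completes the 4, fell by 0.51. The count of 7 was 17 without stable replicate 1, 3 without stable replicate 2, 2 without wild type replicate 1 and 3 without wild type replicate 3. All genes passing in those fits numbered 3786, 584, 744 and 736 in that order, against 1721 with all libraries.

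For knockout-labelled against wild type, 0 of the 107 passed with edgeR, beside 1.66% of all genes. At an unadjusted p of 0.05, 10 were higher and 7 lower. The share of all genes at that unadjusted p is not given here, so nothing is read from these counts. DESeq2 called 3 higher and 3 lower, beside 784 higher and 994 lower of all genes. The smallest p was that of ATJ11, a small plastid J protein, with 458 ± 41.6 RPKM in the knockout-labelled line and 296 ± 41.3 RPKM in wild type (SD, n = 3 each; log2 fold change 0.52, edgeR adjusted p = 0.0897). In this comparison DJC76 ranked first and AT1G56300 second of the 110, and DJC77 ranked 109.

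Between the lines, 5 of the 107 were lower in the stable line than in the knockout-labelled line and 0 were higher, 4.67% beside 6.96% of all genes. They were AT5G18750 (log2 fold change -0.56), AT5G53150 (-0.47), JAC1 (-0.46), AT1G16680 (-0.36) and AT2G25560 (-0.36). At an unadjusted p of 0.05, 7 were higher and 18 lower, again without a share of all genes to set beside them. DESeq2 called 4 higher and 10 lower, beside 2208 higher and 1433 lower of all genes. Without stable replicate 1, 7 were higher and 15 lower, beside 2825 higher and 2416 lower of all genes. Without knockout-labelled replicate 3, 1 was higher and 4 lower, beside 585 and 284 of all genes. The 5 became 0 without stable replicate 2 or 3 or knockout-labelled replicate 1 or 2. All genes passing in those fits numbered 158, 489, 3 and 8 in that order, against 1351 with all libraries. AT1G56300 ranked first and DJC76 second of the 110, and DJC77 ranked 44.

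By level, DJC77 ranked 4 from the highest of the 110 J-domain genes in every group. DJC76 ranked 10 in the stable line, 38 in the knockout-labelled line and 94 in wild type, and AT1G56300 ranked 22, 74 and 99. The median level of the 110 was 12.2, 13.3 and 11.7 RPKM in the same groups.

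**Figure D3:**
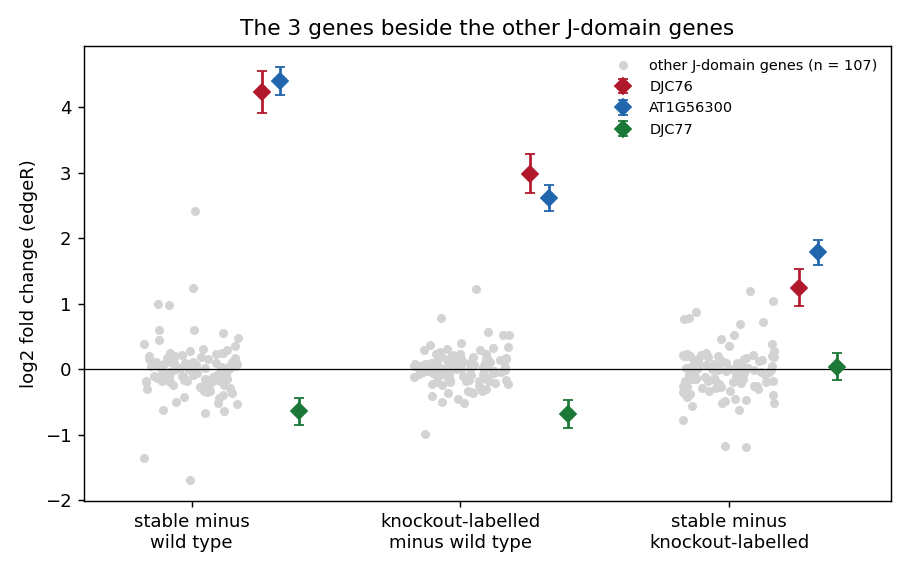
Log2 fold change (y axis) of DJC76, AT1G56300 and DJC77 (diamonds, bars 1 SE from edgeR) beside the 107 other J-domain genes tested (grey points) in the 3 comparisons. In the comparisons with wild type, DJC76 and AT1G56300 lie above all grey points, and DJC77 lies near the lower end of most of them.

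J proteins work with Hsp70s and other chaperones, and those were set beside the 3 genes. Their lists were chosen with earlier results of these data known, so the counts are descriptions. Of 13 tested plastid chaperones, 3 fell and 0 rose in the stable line against wild type, beside 8.87% of all genes passing. CLPB3, the plastid disaggregase, fell by 1.12 on the log2 scale (40.1 ± 8.79 RPKM in the stable line, 91.3 ± 12.5 RPKM in wild type; SD, n = 3 each). CPN60B2, a chaperonin subunit, fell by 0.87 and HSP90-5, the plastid Hsp90, by 0.82. The median of the 13 was -0.20, against 0.01 for all genes. In the other comparisons 0 of the 13 passed with edgeR, beside the same 1.66% and 6.96% of all genes as for the J-domain list. At an unadjusted p of 0.05, 0 were higher and 4 lower in the knockout-labelled line than in wild type. Between the lines, 1 was higher and 2 lower in the stable line. The share of all genes at that unadjusted p is not given here, so nothing is read from these counts. DESeq2 called 3 lower in the knockout-labelled line than in wild type, beside 994 of all genes. Between the lines it called 0, beside 3641 of all genes. For stable against wild type, DESeq2 called 5 lower, beside 1559 of all genes. Without wild type replicate 2, 4 were lower, beside 587 of all genes. The 3 that fell in the stable line became 2 without stable replicate 1, and 1 without stable replicate 2, stable replicate 3, wild type replicate 1 or wild type replicate 3. Of all genes, 734 fell with all libraries, and 1788, 190, 250, 255 and 260 fell in those fits in that order. Between the lines without stable replicate 1, 1 of the 13 was higher and 1 lower, beside 2825 higher and 2416 lower of all genes.

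Of 9 Hsp70 genes outside the plastid list, 2 fell in the stable line against wild type, beside 3.78% of all genes. MED37C, a heat-inducible cytosolic Hsp70, fell by 2.14 on the log2 scale and HSP70-10, a mitochondrial one, by 1.11. In the other comparisons 0 of the 9 passed with edgeR, beside 1.66% of all genes for knockout-labelled against wild type and 6.96% between the lines. At an unadjusted p of 0.05, 1 was higher and 1 lower in the knockout-labelled line than in wild type. Between the lines, 0 were higher and 3 lower in the stable line. The share of all genes at that unadjusted p is not given here, so nothing is read from these counts. DESeq2 called 0 in the knockout-labelled line against wild type, beside 1778 of all genes. It called 1 lower in the stable line than in the knockout-labelled line, beside 1433 of all genes. For stable against wild type, DESeq2 called 5 lower, beside 1559 of all genes. The 2 that fell in the stable line became 4 without stable replicate 1, and 0 without stable replicate 2, stable replicate 3, wild type replicate 1 or wild type replicate 3. Of all genes, 734 fell with all libraries, and 1788, 190, 250, 255 and 260 fell in those fits in that order. Between the lines without stable replicate 1, 0 of the 9 were higher and 3 lower, beside 2825 higher and 2416 lower of all genes.

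The genes whose pattern was most like that of each member were taken as the 5 of highest Pearson correlation of log2 CPM over the 9 libraries. Since the libraries fall into 3 groups, this measure mostly reflects the group means for DJC76 and AT1G56300. The same libraries picked the genes, so correlations with group means removed are descriptions and no second check. For DJC76 they were ELF3, an evening complex component of the circadian clock (0.994), the phospholipid synthesis gene PECT1 (0.992), the cold regulator DREB1A (0.989), the abscisic acid response factor ABF1 (0.988) and AT3G28370 (0.987). With group means removed, the correlation with DJC76 ran from 0.57 for ABF1 to 0.93 for DREB1A, with ELF3 at 0.83. For AT1G56300 they were GWD3, a starch-phosphorylating dikinase of the plastid (0.993), TIM22-2 (0.992), AT5G23575 (0.991), the transporter-like SUGTL4 (0.991) and AT1G12120 (0.990). With group means removed, these fell between 0.25 for TIM22-2 and 0.79 for GWD3.

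For DJC77 they were AT2G36895 (0.963), PDAT1, an acyltransferase of storage oil synthesis (0.955), AT2G32170 (0.955), the chloride channel gene CLC-B (0.954) and the nitrate transporter gene NPF6.2 (0.947). With group means removed, these were between 0.88 and 0.97, and differences within groups also went into picking them. NPF6.2 had 31.5, 40.5 and 42.7 RPKM in the stable line, 39.3, 25.1 and 33.3 RPKM in the knockout-labelled line, and 116, 67.9 and 70.4 RPKM in wild type, with wild type replicate 1 highest as for DJC77.

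**Figure D4:**
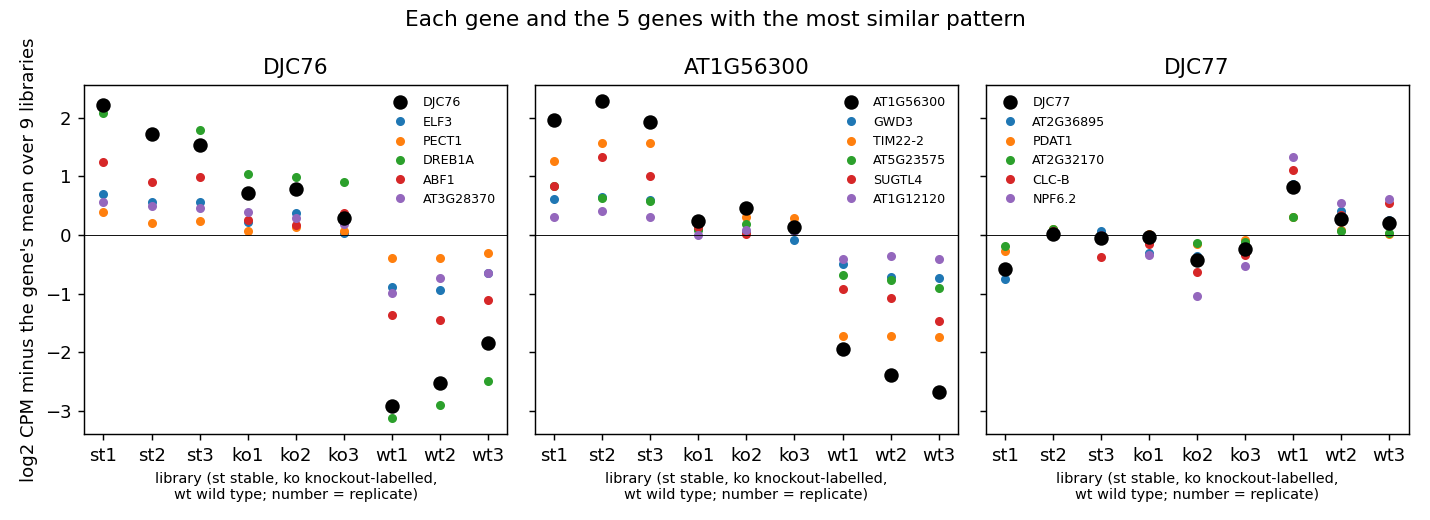
Log2 CPM minus each gene's mean over the 9 libraries (y axis) in each library (x axis) for DJC76, AT1G56300 and DJC77 (black) and the 5 genes of most similar pattern for each (colours). The black points of DJC76 and AT1G56300 span over 4 log2 units between stable and wild type, more than most of the genes that follow them, while the DJC77 panel spans little and wild type replicate 1 is its highest point.

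ELF3 and DREB1A belong to lists of 14 clock genes and 9 cold-response genes that were compared in the same fit. Both lists were chosen with earlier results of these data known, so nothing is read from their counts beside all genes. DREB1A had 10.4, 6.91 and 7.70 RPKM in the stable line, 5.34, 5.30 and 4.65 RPKM in the knockout-labelled line, and 0.234, 0.285 and 0.391 RPKM in wild type, the order of DJC76 with no overlap. ELF3 had 8.92, 6.997 and 7.36 RPKM in the stable line, 6.80, 7.84 and 5.70 RPKM in the knockout-labelled line, and 2.86, 2.81 and 3.41 RPKM in wild type, and here the lines overlapped.

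Of the clock genes, 9 rose and 3 fell in the stable line against wild type, beside 8.87% of all genes passing. Counts of this list are descriptions, given how it was chosen. In the knockout-labelled line against wild type 4 rose and 1 fell, beside 1.66%. Between the lines 6 were higher and 4 lower in the stable line, beside 6.96%. APRR5, an evening-phased repressor in the clock, and ADO3 (FKF1), a blue light receptor, rose in the stable line against wild type by 4.93 and 5.52 on the log2 scale. Both were low in wild type. APRR5 had 13.6 RPKM on average in the stable line and 0.468 RPKM in wild type, and ADO3 had 6.12 and 0.140 RPKM. LHY, a dawn-phased MYB factor, fell to 10.98, 6.50 and 7.23 RPKM in the stable line, against 140, 83.1 and 114 RPKM in wild type. Without stable replicate 2, 5 rose in the stable line against wild type, and 6 without stable replicate 3, wild type replicate 1 or wild type replicate 3, while 3 fell each time. Of all genes, 987 rose and 734 fell with all libraries. In those fits 394, 598, 489 and 476 rose and 190, 250, 255 and 260 fell, in the same order. In the knockout-labelled line 2 clock genes rose and 0 fell without its replicate 1 or 2, and 3 rose and 0 fell without wild type replicate 3. Of all genes, 11, 10 and 17 rose and 0, 0 and 13 fell in those fits, against 180 and 142. Between the lines 2 clock genes were higher and 0 lower in the stable line without knockout-labelled replicate 1, knockout-labelled replicate 2 or stable replicate 2, and 3 and 1 without stable replicate 3. Of all genes, 3, 8, 144 and 440 were higher and 0, 0, 14 and 49 lower in those fits, against 945 and 406. The sampling hour was not compared between groups, and its part in the levels of DJC76, AT1G56300 and DJC77 was not tested.

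Of the cold-response genes, 8 rose and 0 fell in the stable line against wild type, beside 8.87% of all genes passing. Since earlier results were known when this list was chosen, its counts and medians are descriptions only. In the knockout-labelled line against wild type 3 rose and 0 fell, beside 1.66%. Between the lines 5 were higher and 0 lower in the stable line, beside 6.96%. The 8 became 5 without wild type replicate 3, and the 3 became 1 whichever library of the knockout-labelled line or wild type was left out. All genes passing in those fits numbered 736 and 10 to 144, against 1721 and 322. The 5 between the lines became 2 without knockout-labelled replicate 3 or stable replicate 3, and 0 without knockout-labelled replicate 1, knockout-labelled replicate 2 or stable replicate 2. All genes passing there numbered 869, 489, 3, 8 and 158 in that order, against 1351. DREB1A rose by 4.84 and COR15B, a plastid membrane protectant, by 4.15 on the log2 scale in the stable line against wild type. The medians of the 9 were 2.89 for stable over wild type, 1.36 for knockout-labelled over wild type and 1.35 between the lines, against 0.01, 0.00 and 0.00 for all genes.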

How the data were processed

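Per the file headers, the authors deposited counts per gene and library of total exon, unique exon, gene, intron and exon-exon reads, from paired and trimmed reads, and RPKM values. RPKM equalled exon reads per kilobase divided by 1 constant per library. The submitters' processing notes name the build as TAIR10. For the aligner, counter and strand setting: not given in the sources used here. Of the 32833 loci, 32548 were found in RefSeq TAIR10.1, 32532 with the same ends. Columns of per-sample values left unmatched numbered 0.

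Total exon reads were fitted with edgeR 4.0.16 in R 4.3.3 (TMM, filterByExpr with minimum count 10, total 15 and share 0.7, glmQLFit and glmQLFTest) over all 9 libraries, a mean per group, with Benjamini-Hochberg adjustment at 0.05. SE is the log2 fold change divided by the square root of F. Log2 CPM used a prior count of 2. The fit was tested on simulated data. DESeq2 1.42.0, library totals alone, no filter, other read classes, 2-group fits, a replicate block and leaving out each library were the alternatives. Plots used matplotlib 3.10.9.

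The members and lists were chosen with earlier results of these data known. Named genes were the members, IAA26, their neighbours, the 5 of most similar pattern with mean RPKM of at least 1, up to 6 called J-domain genes and up to 3 called genes of each other list by smallest p (the first where none was called). Protein sequences were not used here. P-values measure the spread between these libraries, and the labels do not say whether they came from separate plants.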

Additional observations from a re-analysis of the deposited data

How the results depend on the processing

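The log2 fold changes of DJC76 and AT1G56300 kept their direction in all 3 comparisons under every alternative run, and so did those of DJC77 against wild type. Left-out libraries gave 4.01 to 4.58 for DJC76, 4.25 to 4.63 for AT1G56300 and -0.76 to -0.42 for DJC77 in stable over wild type. They gave 2.78 to 3.33, 2.46 to 2.84 and -0.79 to -0.47 in knockout-labelled over wild type. Between the lines they gave 1.03 to 1.39, 1.65 to 1.89 and -0.08 to 0.20, and DJC77 had -0.17 there with library totals alone, so its sign varied. Library totals alone put the median log2 fold change of all genes at 0.12 for knockout-labelled over wild type and at -0.19 between the lines, against 0.00 for both with TMM. DJC76 between the lines also missed the threshold with library totals alone and with the replicate block. Genes passing numbered 1721 for stable against wild type, 322 for knockout-labelled against wild type and 1351 between the lines. DESeq2 called 3418, 1778 and 3641 in the same order, and leaving out a library gave 584 to 3786, 10 to 144 and 3 to 5241. Fits of only the 2 groups called 615 for stable against wild type and 703 between the lines. Of the other J-domain genes, 7, 0 and 5 passed in the same order. DESeq2 called 17, 6 and 14, and leaving out a library gave 2 to 17, 0 to 0 and 0 to 22. Library totals alone gave 4 for stable against wild type and 10 between the lines, beside 1335 and 1511 of all genes. Fits of only the 2 groups gave 2 and 0, and between the lines no filter gave 2, beside 1117 of all genes. The causes were not tested. Replicate numbers were not taken to pair the samples, since same-numbered libraries correlated from -0.44 to 0.52 after group means were removed, although the libraries numbered 2 shared a lower intron share. With the replicate block, 2 other J-domain genes were higher and 3 lower between the lines, 1537, 134 and 1232 genes passed and the log2 fold changes of DJC76 were 4.23, 2.98 and 1.24 in the same order. AT1G56300 had 5 wild type intron reads in all, too few for a ratio.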
